A study of Mus musculus with 6 samples.

Results

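The genes described here encode signals that recruit or sustain leukocytes: the chemokine genes Ccl2, Ccl7, Ccl5, Ccl20, Cxcl1, Cxcl2, Cxcl10, Cxcl16 and Cx3cl1 and the growth factor gene Csf1. These 10 genes were taken by symbol from the 55232 features of the deposited count table, and all 10 were found. The counts came from mouse pulmonary microvascular endothelial cells, which the labels call a cell line, collected from the lower chamber after 12 h of co-culture. In the repletion group, 3 samples shared the culture with TCMK-1 cells (kidney tubular epithelium of the mouse, grown as a line) that had been depleted of ATP and then repleted, which the labels abbreviate as IR. In the control group, 3 samples shared it with TCMK-1 cells left untreated. Nothing in the labels says whether replicates were grown apart. The p-values therefore set the difference between groups against a spread of samples that may be only technical.

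Chemokines are small secreted proteins that bind receptors on leukocytes and direct their movement, and endothelium displays them at the vessel wall. The CC, CXC and CX3C families are named for the spacing of their leading cysteines. CCL2 and CCL7 act on monocytes through CCR2, CXCL1 and CXCL2 on neutrophils through CXCR2, CXCL10 on activated T cells through CXCR3 and CCL20 through CCR6, and CCL5 attracts T cells and monocytes. CX3CL1 and CXCL16 are made as membrane-anchored proteins and can be cut free by the proteases ADAM10 and ADAM17. CSF1 is the growth factor of monocytes and macrophages. Many of these genes are known targets of the transcription factor NF-kB.

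The libraries held 15582349 to 16612931 counts in the repletion group and 15916554 to 17817618 in the control group. Within a group, libraries were further apart than counting noise alone gives (chi-square per feature 8.56 to 23.3). Endothelial markers summed to 2409 to 2770 CPM (the count relative to the library total, here without further scaling) in the repletion group and 2289 to 2550 in the control group. Of the 12, 11 were abundant enough to test, of which 5 rose and 1 fell. Over all tested features, 20.5% were called higher and 19.2% lower, shares that also stand beside the other marker calls here. Cldn5, a defining gene of endothelial tight junctions, had 3 counts in repletion replicate 2 and was at 0 in the other libraries. The 12 kidney tubule markers, which would trace the co-cultured partner, summed to 16.1 to 20.6 CPM in the repletion group and 14.1 to 17.5 CPM in the control group. Epcam, Krt18 and Slc34a1 were at 0 in all 6 libraries, and none of the 4 tested was called. Aqp1 and Pax2 had the most counts of this list. Aqp1 had 100, 159 and 129 in the repletion samples and 113, 101 and 171 in the control samples. Pax2 had 173, 87 and 65 in the repletion samples and 75, 113 and 99 in the control samples. The 10 leukocyte markers summed to 226 to 317 CPM in the repletion group and 382 to 422 CPM in the control group, nearly all of it Cd68, which fell. Of the defining leukocyte genes, Ptprc had 4 counts in repletion replicate 1 and was at 0 elsewhere, and Itgam and Cd3e were at 0 throughout. Lyz2 had 72, 98 and 70 counts in the repletion samples and 140, 112 and 84 in the control samples. Ly6g had 93, 52 and 97 counts in the repletion samples and 61, 68 and 84 in the control samples. Of the 10 leukocyte markers, 3 could be tested and only Cd68 was called. The 8 fibroblast and mural markers summed to 17.2 to 25.3 CPM in the repletion group and 20.3 to 22.6 CPM in the control group. The 8 lung epithelial markers summed to 0.906 to 1.80 CPM in the repletion group and 0.224 to 0.925 CPM in the control group, with 5 of them at 0 throughout and Ager the only 1 tested, which rose. The part of these markers in the results was not tested.

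The genes did not move together. Of the 10, 9 passed the filter on low counts and Cxcl16 did not. At an adjusted p under 0.05 in edgeR's quasi-likelihood test, Ccl2, Ccl20, Cxcl10 and Csf1 rose in the repletion group and Ccl7 fell, while Ccl5, Cxcl1, Cxcl2 and Cx3cl1 did not pass. That is 5 of 9 called, beside 39.7% of the 13804 tested features, with 4 higher beside 20.5% and 1 lower beside 19.2%. The median log2 fold change of the 9 was -0.16, against 0.00 over all tested features, and the median absolute change was 0.39, against 0.38. Of the 5 calls, those of Ccl2 and Ccl7 held under each of the 16 alternatives run. The count of genes that rose was 2 without repletion replicate 1, repletion replicate 2 or control replicate 1, and 1 without control replicate 2 or control replicate 3. These are bulk samples, so fewer expressing cells and less RNA per cell cannot be told apart.

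**Figure D1:**
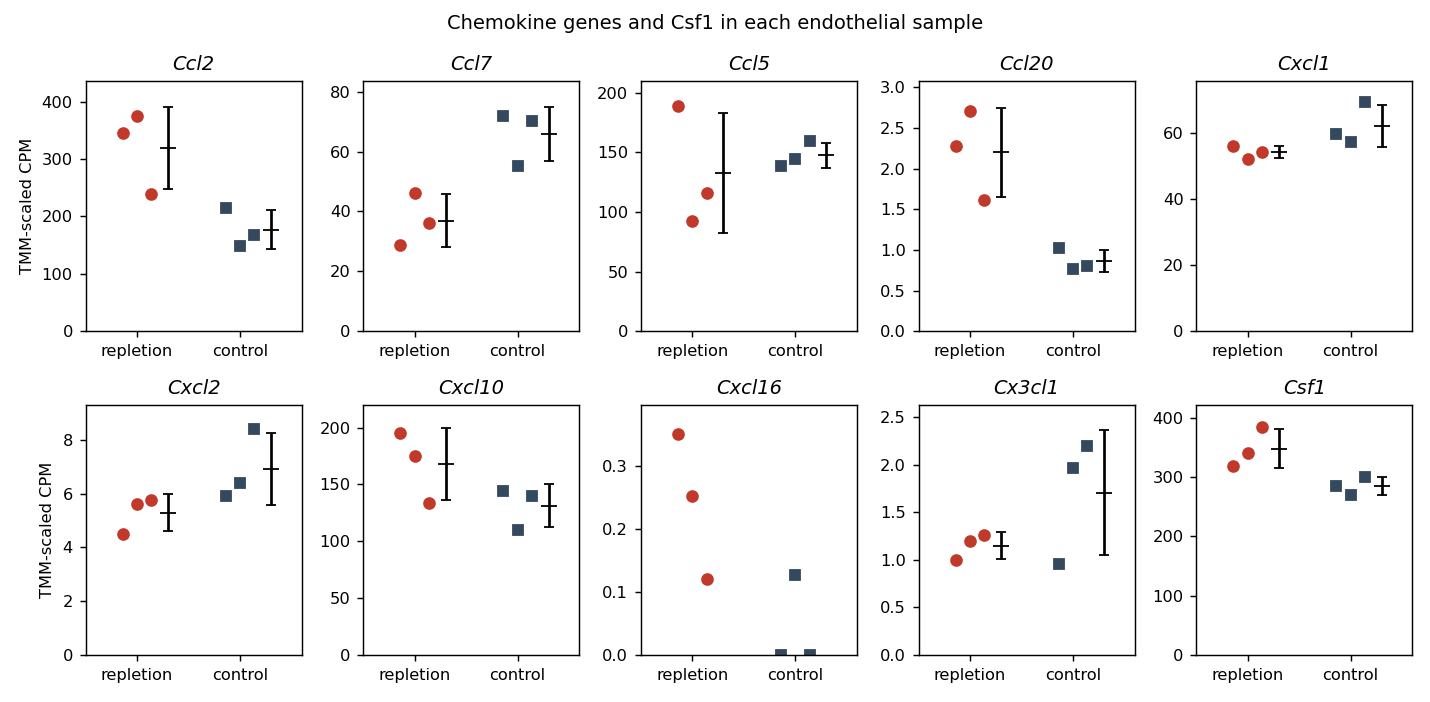
CPM scaled by trimmed mean of M values (TMM) in each of 3 repletion samples (circles) and 3 control samples (squares), with the mean and SD as a bar beside them (none for Cxcl16, which has samples at 0). Axes start at 0 and differ between genes. All 3 repletion samples lie above all controls for Ccl2, Ccl20 and Csf1 and below them for Ccl7, Cxcl1 and Cxcl2; without TMM factors Cxcl1 and Cxcl2 overlap.

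The monocyte chemokine gene Ccl2 rose (ENSMUSG00000035385, chromosome 11, 82035571 to 82037453 on the plus strand in GRCm38, 3 exons in its coding transcript). Its level was 345, 375 and 239 TMM-scaled CPM in the repletion samples, against 214, 149 and 168 in the control samples. Every repletion sample lay above every control sample, although repletion replicate 3 was much closer to the controls than the other two. The means were 319.7 ± 71.5 CPM in the repletion group and 177 ± 33.5 CPM in the control group (SD, n = 3 each). The log2 fold change was 0.85 ± 0.15 (SE), a 1.81-fold rise (edgeR quasi-likelihood, adjusted p = 0.000339). Leaving out any 1 library gave log2 fold changes between 0.72 and 1.02.

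Ccl7, which encodes another ligand of CCR2, fell (ENSMUSG00000035373, chromosome 11, 82045712 to 82047525, plus strand, 3 exons). Its level was 28.7, 46.1 and 36.0 CPM in the repletion samples, against 72.0, 55.3 and 70.2 CPM in the control samples, with no overlap. The means were 36.9 ± 8.78 CPM in the repletion group and 65.9 ± 9.16 CPM in the control group (SD, n = 3 each). The log2 fold change was -0.84 ± 0.16 (SE) (edgeR quasi-likelihood, adjusted p = 0.000514). Leaving out repletion replicate 2 gave -1.03 and leaving out repletion replicate 1 gave -0.69, while correcting each library's trend with feature length gave -0.64.

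Ccl2 and Ccl7 are neighbours on the same strand, 8258 bases apart. There were 12.0, 8.14 and 6.64 Ccl2 counts per Ccl7 count in the repletion samples, against 2.97, 2.69 and 2.39 in the control samples. The mean ratio was thus 8.93 ± 2.78 in the repletion group and 2.69 ± 0.291 in the control group (SD, n = 3 each), a 3.24-fold difference between geometric means. This ratio was chosen after its parts had been seen. A two-sided exact permutation test over samples gave p = 0.1, the smallest that 3 against 3 allows. That outcome was fixed beforehand, since every repletion sample lay above the controls for Ccl2 and below them for Ccl7. The test thus adds nothing to the changes of the 2 genes. Leaving out any 1 sample gave 2.75-fold to 3.70-fold.

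**Figure D2:**
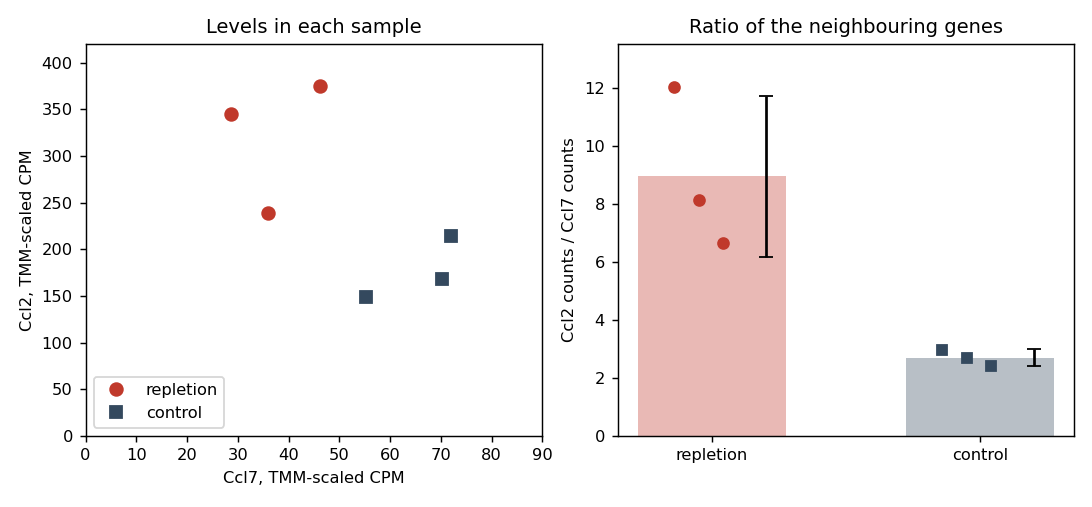
Left, Ccl2 against Ccl7 in TMM-scaled CPM for each repletion sample (circles) and control sample (squares). Right, Ccl2 counts divided by Ccl7 counts, with bars for the mean, error bars for the SD and points for the 3 samples of a group; the repletion samples lie between 6.64 and 12.0 and the control samples between 2.39 and 2.97.

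The neighbours are related in sequence. Their coding sequences matched at 215 of 293 aligned bases (73.4%), the longest run shared by the mature transcripts was 23 bases, in both 5′ untranslated regions, and within the coding sequences it was 11 bases. Neither gene had a copy elsewhere among annotated transcripts of at least 100 bases at 95% identity. The stretches around the longest shared coding run are printed to show how the pair differs, from GENCODE M21 transcripts in GRCm38, plus strand, chr11:82036538-82036598 for Ccl2 and chr11:82046567-82046627 for Ccl7, each within 1 exon, with the shared run in capitals.
Ccl2: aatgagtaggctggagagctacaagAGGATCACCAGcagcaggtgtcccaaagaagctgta
Ccl7: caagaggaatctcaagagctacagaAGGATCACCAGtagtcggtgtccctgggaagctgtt

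Further genes of the cluster that Ccl2 and Ccl7 belong to had almost no reads. Ccl8 had 1, 0 and 0 counts in the repletion samples and 3, 3 and 0 in the control samples. Ccl11, Ccl12 and Ccl1 were at 0 in all 6. The predicted gene Gm17268, which overlaps Ccl2 on the other strand outside its exons, was also at 0.

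Csf1, the macrophage growth factor gene, rose by a small amount (ENSMUSG00000014599, chromosome 3, 107741048 to 107760469, minus strand, 9 exons in the coding transcript used). It had the highest mean CPM of the 10 genes in both groups, at 319, 339.8 and 385 CPM in the repletion samples, against 284, 269.7 and 301 in the control samples. The groups did not overlap, and the gap between the lowest repletion sample and the highest control sample was small beside the spread within the repletion group. The means were 348 ± 33.5 CPM in the repletion group and 285 ± 15.5 CPM in the control group (SD, n = 3 each), a log2 fold change of 0.29 ± 0.10 (SE) (edgeR quasi-likelihood, adjusted p = 0.0337). The call was lost without repletion replicate 3 (log2 fold change 0.21, adjusted p of 0.209), without control replicate 1 (0.0873), 2 (0.155) or 3 (0.0664) and with no filter (0.0939), in a range of 0.0104 to 0.209 over the alternatives.

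Cx3cl1, the gene of the membrane-anchored chemokine fractalkine, was near the detection limit (chromosome 8, 94772009 to 94782427, plus strand). It had 17, 19 and 21 counts in the repletion samples and 15, 31 and 38 in the control samples. Control replicate 1 lay below the repletion samples and the other controls above them. The log2 fold change was -0.57 with a 95% interval of -1.60 to 0.46 (edgeR quasi-likelihood, adjusted p = 0.378).

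The neutrophil chemokine genes Cxcl1 and Cxcl2 lie 10755 bases apart on chromosome 5 and did not pass the test. With TMM scaling every repletion sample lay below every control sample for both genes, but per library total, without TMM factors, the groups overlapped for both. Cxcl1 (90891241 to 90893115, plus strand) had 56.1, 52.3 and 54.3 CPM in the repletion samples, against 59.8, 57.4 and 69.3 CPM in the control samples. Its log2 fold change was -0.20 with a 95% interval of -0.44 to 0.05 (edgeR quasi-likelihood, adjusted p = 0.189). Cxcl2 (90903871 to 90905938, plus strand) had 4.49, 5.60 and 5.75 CPM in the repletion samples, against 5.92, 6.41 and 8.42 CPM in the control samples. Its log2 fold change was -0.39 with an interval of -0.90 to 0.12 (edgeR quasi-likelihood, adjusted p = 0.213). Groups without overlap are common here: with TMM scaling they occurred in 6 of the 9 tested genes, beside 50.3% of all tested features. Cxcl1 had 10.4 ± 1.78 counts per Cxcl2 count in the repletion group and 9.10 ± 0.946 in the control group (SD, n = 3 each; exact permutation test, two-sided, p = 0.4). The sample ranges of this ratio overlapped.

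Cxcl1 and Cxcl2 are closer in sequence than Ccl2 and Ccl7 are. Their coding sequences matched at 229 of 291 aligned bases (78.7%), with a longest shared coding run of 21 bases. That run is shown in capitals with the bases around it, from GENCODE M21, plus strand, chr5:90891505-90891575 for Cxcl1 and chr5:90904151-90904221 for Cxcl2. Cxcl2 also shares 116 bases at 98.3% identity with Cxcl3, which had 0 counts in the repletion samples and 1 count in control replicate 2.
Cxcl1: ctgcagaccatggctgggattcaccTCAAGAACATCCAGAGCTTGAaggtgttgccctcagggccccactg
Cxcl2: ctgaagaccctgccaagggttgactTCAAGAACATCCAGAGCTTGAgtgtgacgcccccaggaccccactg

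Among the lymphocyte attractants, Cxcl10 rose and Ccl5 did not pass. Cxcl10 (ENSMUSG00000034855, chromosome 5, 92346638 to 92348889, minus strand), the gene of an interferon-inducible CXCR3 ligand, had 195, 175 and 134 CPM in the repletion samples, against 144, 110.2 and 140.1 CPM in the control samples. Repletion replicate 3 fell within the control range, so the groups overlapped. The means were 168 ± 31.3 CPM in the repletion group and 131 ± 18.5 CPM in the control group (SD, n = 3 each), a log2 fold change of 0.35 ± 0.14 (SE) (edgeR quasi-likelihood, adjusted p = 0.0465). The call was lost without repletion replicate 1 (log2 fold change 0.23, adjusted p of 0.176) or 2 (0.101), without control replicate 1 (0.0525), 2 (0.22, 0.265) or 3 (0.0749) and with upper quartile scaling (0.0599), in a range of 0.0105 to 0.265 over the alternatives. The Art3 gene overlaps its exons on the other strand and had at most 3 counts in any library.

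Ccl5 (ENSMUSG00000035042, chromosome 11, 83525778 to 83530518, minus strand) differed most between repletion samples among the genes over 10 CPM. It had 189, 92.4 and 116 CPM in the repletion samples, against 139, 145 and 159 CPM in the control samples. Repletion replicate 1 was above all controls and the other two below them. The coefficient of variation was 38.1% in the repletion group and 7.15% in the control group. Its log2 fold change was -0.16 with a 95% interval of -0.53 to 0.22 (edgeR quasi-likelihood, adjusted p = 0.513). The value depended on single libraries: it was -0.51 with an adjusted p of 0.00197 without repletion replicate 1, and 0.04 with 0.869 without repletion replicate 2, and over all alternatives the adjusted p ran from 0.00197 to 0.955.

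Ccl20, the gene of the CCR6 ligand that attracts dendritic cells and T helper cells, was rare and rose (ENSMUSG00000026166, chromosome 1, 83116766 to 83119167, plus strand). It had 39, 43 and 27 counts in the repletion samples, against 16, 12 and 14 in the control samples, with no overlap. The means were 2.20 ± 0.549 CPM in the repletion group and 0.862 ± 0.137 CPM in the control group (SD, n = 3 each). Its log2 fold change of 1.34 ± 0.48 (SE) had a 95% interval of 0.34 to 2.34 (edgeR quasi-likelihood, adjusted p = 0.0321). It did not pass without repletion replicate 1 (adjusted p = 0.0819) or 2 (0.109), without control replicate 2 (0.0957) or 3 (0.0911) or with no filter (0.0562), in a range of 0.0193 to 0.109 over the alternatives.

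Cxcl16, the gene of a membrane-anchored CXCR6 ligand on chromosome 11 (70453983 to 70459984, minus strand), was too rare to test. It had 6, 4 and 2 counts in the repletion samples and 0, 2 and 0 in the control samples. The groups overlapped, with 2 counts in repletion replicate 3 and 2 in control replicate 2. The ratio of the summed counts, 12 against 2, per library total was 6.15 with an exact 95% interval of 1.37 to 56.6. That interval pools the libraries of a group and covers counting error only, so it leaves out the spread between samples. Its exons overlap those of Zmynd15 on the other strand, which had 24, 9 and 10 counts in the repletion samples and 4, 3 and 1 in the control samples, and Cxcl16 shares 552 bases with a transcript of Zmynd15. Reads of these overlapping genes cannot be told apart without strand. The authors' deposited table gives Cxcl16 an adjusted p of 0.374.

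**Figure D3:**
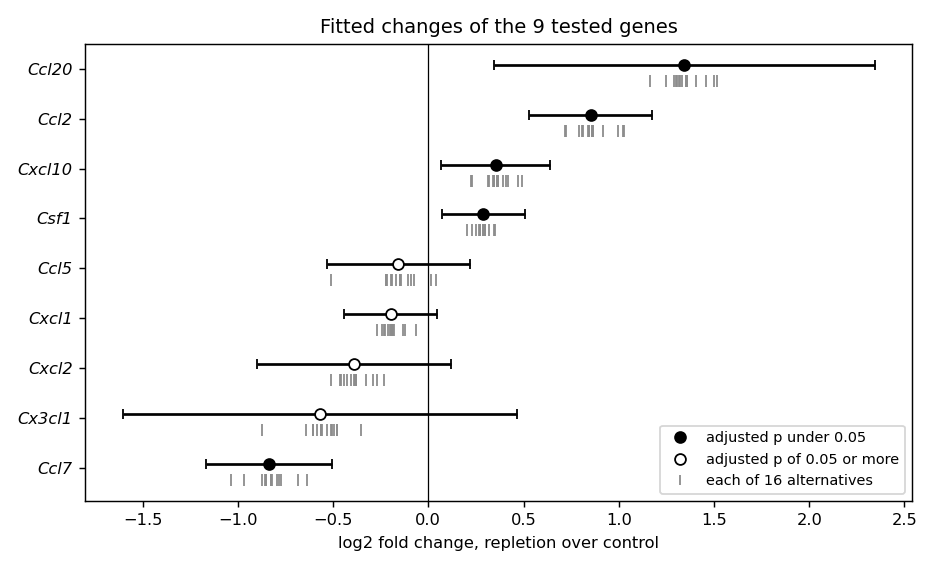
Log2 fold changes of the 9 tested genes, repletion over control, from edgeR's quasi-likelihood fit, with 95% intervals (n = 3 samples each). Filled points have an adjusted p under 0.05 and open points do not; grey ticks are the 16 alternatives, which cross 0 for Ccl5 only.

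To compare genes with each other, levels were divided by feature length. In the repletion group Ccl2 stood highest, at 281 ± 62.9 CPM per kilobase, followed by Ccl5 at 138 ± 52.5, Cxcl10 at 74.6 ± 13.9, Csf1 at 65.9 ± 6.34, Ccl7 at 46.1 ± 10.96 and Cxcl1 at 28.9 ± 1.01 (SD, n = 3). Among these neighbours, the sample ranges of Cxcl10 and Csf1 overlapped and the others did not. In the control group Ccl2 and Ccl5 had overlapping ranges, at 131 to 188 and 145 to 166 CPM per kilobase. Ccl7 came next at 82.2 ± 11.4, above Cxcl10 at 58.4 ± 8.22 and Csf1 at 54.0 ± 2.93, whose ranges overlapped, and Cxcl1 at 33.2 ± 3.37 (SD, n = 3). Cxcl2, Ccl20, Cx3cl1 and Cxcl16 followed by their means in both groups, with overlapping ranges of Ccl20 and Cx3cl1 in the control group, from 2.55 ± 0.332 CPM per kilobase for Cxcl2 in the repletion group, or 3.34 ± 0.641 in the control group, downwards. This order depended on the length used, since the deposited length joins the exons of all transcripts. It is 2.06 times the length of the main coding transcript for Cxcl10, 1.97 times for Cxcl1, 1.86 times for Cxcl2, 1.80 times for Ccl5 and 1.40 times for Ccl2, and the same for Ccl7. With the main coding transcript, an alternative chosen after seeing the data, Ccl7 was at rank 6 of 10 rather than rank 5 in the repletion group and at rank 4 rather than rank 3 in the control group. Ccl5 then stood above Ccl2 in the control group, with overlapping ranges. In the repletion group, the ranges of Ccl2 and Ccl5, of Ccl5 and Cxcl10 and of Cxcl1 and Ccl7 overlapped with this length. Those of Cxcl10 and Csf1 did not.

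**Figure D4:**
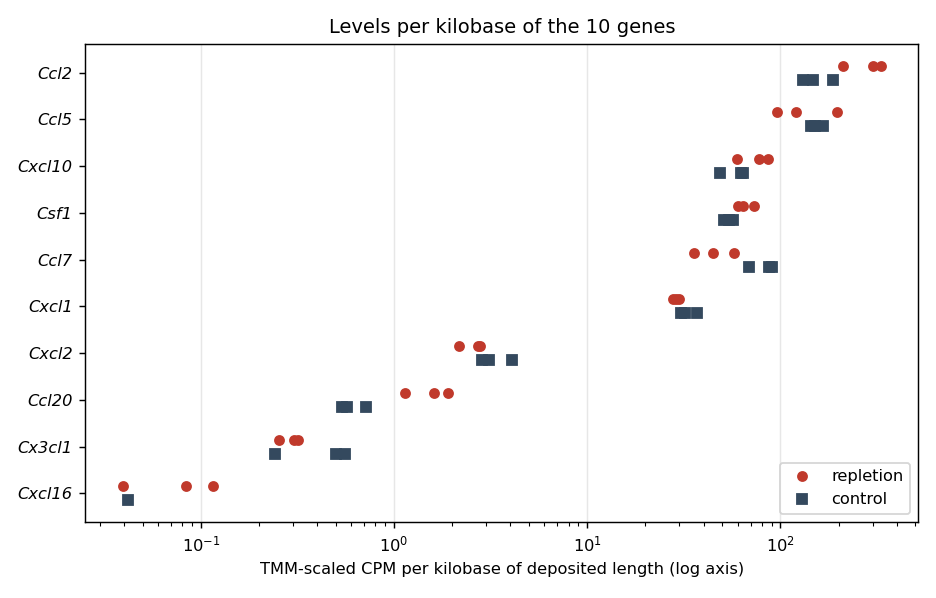
TMM-scaled CPM per kilobase of deposited length on a log axis, for each repletion sample (circles) and control sample (squares), with genes ordered by the repletion mean. The 2 control samples of Cxcl16 at 0 are not drawn; Ccl2 is at the top and 6 genes lie above 25 CPM per kilobase in every sample.

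As a share of the library, the 10 genes held 0.109% ± 0.00999 of counts in the repletion group and 0.0858% ± 0.00611 in the control group (SD, n = 3 each). Ccl2 made up 24.6% to 34.4% of these counts in the repletion samples and 18.3% to 23.2% in the control samples. Ccl7 made up 2.51% to 4.23% in the repletion samples and 6.95% to 7.82% in the control samples. Csf1 made up 28.0% to 39.6% in the repletion samples and 30.9% to 33.9% in the control samples, ranges that overlap.

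Promoter sequences from RefSeq were at hand for 6 of the 10 genes, and Ccl2, Ccl7, Ccl5 and Cxcl16 were not searched. In the 250 bases before the annotated start, 5 of these 6 held a match to the NF-kB consensus motif (kB) on either strand, beside 7.25% of 32851 promoters and 8.78% of the 12330 promoters of tested genes. Cxcl1 and Cxcl2, which did not pass, both carry GGGAATTTCC, which begins 71 and 97 bases before the start and overlaps a match on the other strand. Cxcl10, which rose, has kB matches beginning 159 and 104 bases before the start, an interferon response motif (GAAANNGAAA) at 213 bases and an AP-1 motif (TGANTCA) at 74 bases. Those motifs occur in 2.98% and 6.75% of all promoters. Ccl20 and Csf1, which also rose, have a kB match that begins 80 and 154 bases before the start. Cx3cl1 holds none in this window, and only a TATAAA next to the start, a motif in 12.4% of all promoters. The kB match was thus present in genes called higher and in genes that did not pass; a match is a description of these letters and not a binding site. The windows are printed 5′ to 3′ on the gene's strand in GRCm38.p6, with kB matches in capitals, to show where the motif sits in each. They are chr1:83116586-83116745 (plus) for Ccl20, chr5:90891065-90891224 (plus) for Cxcl1, chr5:90903719-90903878 (plus) for Cxcl2, chr5:92348910-92349119 (minus) for Cxcl10 and chr3:107760490-107760649 (minus) for Csf1.
Ccl20: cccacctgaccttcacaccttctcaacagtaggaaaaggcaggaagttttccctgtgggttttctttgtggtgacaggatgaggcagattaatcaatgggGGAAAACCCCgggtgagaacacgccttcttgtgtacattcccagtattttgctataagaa
Cxcl1: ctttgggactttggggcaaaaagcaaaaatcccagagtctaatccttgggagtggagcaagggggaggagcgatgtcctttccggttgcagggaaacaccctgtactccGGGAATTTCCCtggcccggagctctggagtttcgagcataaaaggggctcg
Cxcl2: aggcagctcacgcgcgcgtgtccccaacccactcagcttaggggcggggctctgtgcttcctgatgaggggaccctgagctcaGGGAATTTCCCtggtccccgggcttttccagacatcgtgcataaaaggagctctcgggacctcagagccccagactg
Cxcl10: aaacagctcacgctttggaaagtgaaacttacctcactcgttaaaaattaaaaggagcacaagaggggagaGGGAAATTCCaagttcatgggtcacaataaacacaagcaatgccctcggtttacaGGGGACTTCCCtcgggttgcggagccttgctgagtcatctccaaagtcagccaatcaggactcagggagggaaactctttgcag
Csf1: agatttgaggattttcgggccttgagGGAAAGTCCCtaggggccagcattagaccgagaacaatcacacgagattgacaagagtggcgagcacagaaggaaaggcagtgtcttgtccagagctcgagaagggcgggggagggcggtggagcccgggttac

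**Figure D5:**
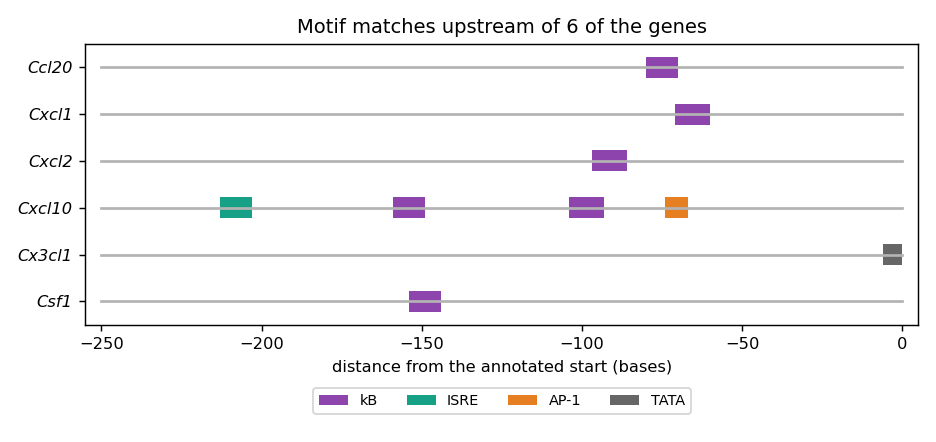
Positions of motif matches on either strand in the 250 bases before the annotated start of 6 of the genes, with the start at 0. The kB matches (purple) begin between 159 and 71 bases before the start in the 5 genes that have them, and overlapping matches on both strands are drawn as 1 block.

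In the 3′ untranslated regions, the AU-rich pentamer ATTTA, a motif bound by mRNA decay factors, occurred in 9 of the 10 genes, beside 66.8% of 11424 tested protein-coding genes. The longer TATTTAT occurred in 5 of the 10, beside 28.2%. The densest were Cxcl2 with 11 ATTTA in 734 bases and Cxcl1 with 7 in 592 bases, followed by Ccl20 with 9 in 1050 bases. Ccl2 had 1 in 275 bases and Ccl7 had 2 in 435 bases, and neither had TATTTAT. Cxcl1 had 6 TATTTAT and Cxcl2 had 7, the most of the 10 genes, and a stretch with 3 of them is shown for each, with the motif in capitals, from GENCODE M21 at chr5:90892604-90892630 for Cxcl1 and chr5:90905333-90905359 for Cxcl2, plus strand.
Cxcl1: gggtccTATTTATTTATgTATTTATtt
Cxcl2: tttatctatgTATTTATTTATTTATta

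Of 32 other chemokine and colony-stimulating factor ligand genes, 8 could be tested and 13 had no count in any library. Cxcl12, the gene of the CXCR4 ligand, rose, and the other 7 did not pass, beside 20.5% higher over all tested features; 2 of these ligand genes rose without repletion replicate 1 or 3 or without control replicate 1, 2 or 3. Cxcl12 had 612 ± 44.6 CPM in the repletion group and 372 ± 2.33 CPM in the control group (SD, n = 3 each), a log2 fold change of 0.72 (edgeR quasi-likelihood, adjusted p = 2.7e-05). The median log2 fold change of the 8 was 0.49. Ccl4, which lies near Ccl5, had 562, 315 and 274 counts in the repletion samples and 240, 225 and 347 in the control samples, with an adjusted p of 0.0895.

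Most receptor genes were at or near the detection limit. Of 27 receptor and decoy receptor genes, 4 could be tested and 7 had no count in any library. Cxcr4 fell, with 45, 63 and 38 counts in the repletion samples against 149, 152 and 272 in the control samples and a log2 fold change of -1.98 ± 0.28 (SE; edgeR quasi-likelihood, adjusted p = 3.7e-05), and the other 3 did not pass (lower over all tested features, 19.2%).

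Genes of shedding, by which CX3CL1 and CXCL16 are released from the membrane, were called at about the share of all tested features. Of 8 such genes, all tested, 2 rose and 2 fell, beside 20.5% higher and 19.2% lower over all tested features, with a median of -0.05. The genes of the proteases themselves did not pass. Adam10 was at 0.25 ± 0.11 (SE; edgeR quasi-likelihood, adjusted p = 0.0783) and Adam17 at -0.17 ± 0.10 (adjusted p = 0.206). Timp3, which encodes an inhibitor of ADAM17, rose by 0.69 ± 0.11 and Tspan5, a tetraspanin partner of ADAM10, rose by 0.51 ± 0.12 (SE) on the log2 scale. Tspan15, another such partner, fell by 0.71 ± 0.14. Rhbdf2, which encodes the ADAM17 regulator iRhom2, fell by 0.42 ± 0.14, a call that was lost without repletion replicate 3 (adjusted p = 0.0985), control replicate 2 (0.0734) or control replicate 3 (0.0793) or with library size only (0.0544) or a replicate block (0.0509), in a range of 0.0159 to 0.0985 over the alternatives.

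Of 21 transcription regulators of chemokine genes, all tested, 4 rose and 8 fell, beside 20.5% higher and 19.2% lower over all tested features, with a median log2 fold change of -0.24 against 0.00. Sp1, a general promoter-binding factor, rose by 0.80 ± 0.12 and the NF-kB subunit gene Nfkb1 by 0.35 ± 0.11 (SE). The NF-kB genes of the list did not move together. Rel rose by 0.40 ± 0.15 (SE; edgeR quasi-likelihood, adjusted p = 0.0467), whereas the NF-kB regulator gene Nfkbia fell by 0.58 ± 0.11 (adjusted p = 0.000434). Rela, Relb and Nfkb2 did not pass. The interferon response factor genes Irf1 and Stat2 fell by 1.11 ± 0.15 and 0.79 ± 0.12. Nfkb1 stood at 0.08 with an adjusted p of 0.634 after removal of the trend with feature length, and did not pass without repletion replicate 3 (0.0666) or control replicate 2 (0.145), in a range of 0.00602 to 0.634 over the alternatives. The counts rest in part on single libraries: 1 rose without repletion replicate 3, 2 rose without control replicate 1, 2 or 3, and 5 fell without repletion replicate 3 or control replicate 1 or 2.

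Of 13 mRNA decay regulators, all tested, 6 rose and 1 fell, beside 20.5% higher and 19.2% lower over all tested features, with a median of 0.22; 2 fell without repletion replicate 1 or control replicate 3. Hnrnpd, which encodes the AU-rich element binding protein AUF1, had 147 ± 5.83 CPM in the repletion group and 75.0 ± 3.25 CPM in the control group (SD, n = 3 each), a log2 fold change of 0.97 (edgeR quasi-likelihood, adjusted p = 2.1e-06). Zfp36l2, whose product recruits deadenylases to AU-rich elements, rose by 0.58 ± 0.11, and Cnot8, a deadenylase subunit gene, fell by 0.54 ± 0.12 (SE). The other Cnot genes of the list went the other way, as Cnot1 rose by 0.42 ± 0.12 and Cnot7 by 0.39 ± 0.13 (SE).

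The genes whose profile over the 6 samples was most like that of Ccl2 or Csf1 were sought among 11673 tested protein-coding genes. For Ccl2 they were Otud1, Il18 and Pfkfb1, with Pearson's r of log2 CPM between 0.983 and 0.988. For Csf1 they were Lrp10, Cdca8 and Alg12, with r between 0.988 and 0.990. Many genes came close, since 60 genes reached 0.95 with Ccl2 and 45 with Csf1. Otud1, a deubiquitinase gene, had 131 ± 16.2 CPM in the repletion group and 80.7 ± 8.32 CPM in the control group (SD, n = 3 each). It passed edgeR's quasi-likelihood test (adjusted p = 0.000215), whereas Il18 (0.0529), Lrp10 (0.298) and Cdca8 (0.165) did not. Pfkfb1 (0.0445) and Alg12 (0.0218) passed, and did so in 7 and 14 of the 16 alternatives.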

How the data were processed

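RNA-seq read counts of 6 mouse pulmonary microvascular endothelial cell samples were analysed, grouped by the sample titles. The deposited table held raw counts for 55232 features. DESeq2 1.20.0, featureCounts 1.5.0-p3, HISAT2 2.0.5 and GRCm38.p6 are named, without roles, per the submitters' processing notes. The strand setting is not given in the sources used here. The deposited FPKM, the authors' scaled group signal, log2 fold changes and p-values, named per the file headers, entered no test. The FPKM equal count over length and 1 constant per sample (tolerance 0.1%).

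Features were filtered with filterByExpr, which left 13804, scaled with TMM (factors 0.970 to 1.03) and tested two-sided with edgeR 4.0.16's quasi-likelihood test in R 4.3.3. P-values were Benjamini-Hochberg adjusted over all tested features, with a threshold of 0.05. Each standard error (SE) was derived from the F statistic. The common coefficient of variation between samples, beyond counting error, came to 14.1%.

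Alternatives were DESeq2 1.42.0, limma-voom (limma 3.58.1), other scalings and filters, protein-coding features only, removal of each library's trend with feature length, a replicate block and each sample left out. The genes and lists were chosen with earlier results of these data known. Of every other list, up to 2 called genes with the smallest p per direction were named. Some further list genes were named afterwards, to show how related genes moved. For Csf1 and Ccl2, the 3 protein-coding genes with the most similar profile were also named. Where features shared a symbol, the most abundant was used.

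Transcripts, exons and overlaps came from GENCODE M21 and promoters from RefSeq, both on GRCm38. BLAST 2.17.0 searched transcripts for copies of at least 100 bases at 95% identity. The exact intervals of summed counts, for Cxcl16 and Cxcl5, cover counting error only. The 95% intervals of log2 fold changes come from the quasi-likelihood fit and include the spread between samples.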

Additional observations from a re-analysis of the deposited data

How the results depend on the processing

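Under the 16 alternatives, Ccl2 (0.72 to 1.03) and Ccl7 (-1.03 to -0.64) kept their direction and call. Cxcl1, Cxcl2 and Cx3cl1 did not pass in any. With no filter, 2 of the genes were called higher, Ccl20 at 1.30 and Csf1 at 0.25 no longer passed, and the median of all features moved by 0.13; with upper quartile scaling Cxcl10, at 0.34, did not pass. Ccl5 turned to 0.015 once the length trend was removed and to 0.039 without repletion replicate 2. Leaving out 1 library gave 1 to 3 genes called higher and 1 to 2 called lower, with Ccl20 at 1.16 to 1.52, Cxcl10 at 0.22 to 0.49, Csf1 at 0.21 to 0.34 and Ccl5 at -0.51 to 0.04. It gave 1 to 2 other ligands higher, 1 to 2 shedding genes lower, 1 to 3 transcription regulators higher and 5 to 9 lower, and 1 to 2 decay regulators lower. Other ligands called higher numbered 3 with no filter and 2 without the length trend. Shedding genes called lower numbered 1 with library size only. Transcription regulators called higher numbered 2 with upper quartile scaling or no filter, and 5 were lower with library size only. Decay regulators called lower numbered 2 with limma-voom, no filter or no length trend. The causes were not tested. With library size only, 59.4% of calls over all features were higher, against 51.6%.

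The replicate numbers did not pair the samples: same-numbered deviations correlated at -0.08, -0.03 and 0.06, and not every sample correlated best with its own number. A replicate block gave 2485 features higher and 2353 lower, against 2830 and 2654, and 1 of the genes higher. Under this block Ccl20 was 1.32, Cxcl10 0.35 and Csf1 0.29, none of which passed. It gave 1 shedding gene lower, as Rhbdf2 did not pass, 2 transcription regulators higher and 2 decay regulators lower. At this depth, Cxcl16, Cx3cl1 and Ccl20 rest on at most 43 counts a library.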

Other observations

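Cxcl5, a neutrophil chemokine gene in the cluster that holds Cxcl1 and Cxcl2 on chromosome 5, was removed by the filter on low counts. It had 9, 10 and 22 counts in the repletion samples and 0, 2 and 1 in the control samples, with no overlap. The ratio of the summed counts, 41 against 3, per library total was 14.003 with an exact 95% interval of 4.47 to 70.7. It was singled out after its values were seen, and the interval covers counting error only.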
